A study of Mus musculus with 8 samples.

Results

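The variable (V) segments of the T cell receptor were read in inguinal white adipose tissue (iWAT), the fat pad under the skin of the groin. The members were the 144 genes with the biotype TR_V_gene in the authors' FPKM table (fragments per kilobase of gene length, scaled to library size by the authors), out of 54532 genes. By name, 108 were alpha chain segments (Trav), 22 beta chain (Trbv), 7 gamma chain and 5 delta chain (Trdv). Of the gamma segments, only Trgv2 carries the prefix Trgv, and the other 6 are named Tcrg-V. The remaining 2 members, B230359F08Rik and C920008G01Rik, carry no chain prefix and lie among the Trav segments. The donors were males on a high-fat diet (HFD), with 4 libraries from adipocyte KLF10 knockouts (KLF10AKO) and 4 from wild type mice (WT). The study asked which iWAT genes differ when adipocytes lack KLF10, a zinc-finger transcription factor. The labels give neither the Cre driver, the strain or the age, nor which animal each library came from, so p-values here measure the spread between these libraries, which may be technical.

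A T cell receptor chain is built in the thymus by joining a V segment to a J segment, with a D segment between them in beta and delta chains, and the joined exon is spliced to a constant region. The V segment codes for most of the variable domain, and its last bases open the CDR3 loop, which contacts the antigen. Most T cells carry an alpha and a beta chain, and the gamma-delta T cells that many tissues hold carry a gamma and a delta chain. A diverse T cell population uses many V segments, a clone uses few, and some lineages of fixed specificity share a fixed V segment. Invariant natural killer T (NKT) cells of the mouse use Trav11, paired with Trbv13-2, Trbv29 or Trbv1, and mucosal-associated invariant T (MAIT) cells use Trav1.

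The 3′ ends of several segments are shown because they bear on how reads can be assigned. They are the last bases of the GENCODE M21 transcripts on mm10, 5′ to 3′, and capitals mark the bases from the last cysteine codon, where CDR3 begins, to the end of the segment. The Trbv13 group is shown because it took the largest share of beta reads among Trbv families. It holds Trbv13-2 (ENSMUSG00000076469, chr6:41121396-41121832, plus strand), Trbv13-1 (chr6:41116007-41116468) and Trbv13-3 (chr6:41130147-41130585).
Trbv13-2: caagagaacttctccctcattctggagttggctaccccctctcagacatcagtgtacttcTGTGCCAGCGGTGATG
Trbv13-1: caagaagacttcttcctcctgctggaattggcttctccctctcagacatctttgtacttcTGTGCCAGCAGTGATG
Trbv13-3: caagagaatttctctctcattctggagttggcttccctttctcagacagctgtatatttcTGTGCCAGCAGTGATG
The capitals are the same in Trbv13-1 and Trbv13-3 and differ in Trbv13-2. Over the 340 bases compared, position by position without gaps, Trbv13-3 differed from Trbv13-2 at 32 bases and Trbv13-1 from Trbv13-2 at 54. The members of the group could thus be told apart.

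Trav11 (chr14:53519303-53519859) and its copy Trav11d (chr14:52824357-52824912), both on the plus strand, are shown because their reads could not be told apart.
Trav11: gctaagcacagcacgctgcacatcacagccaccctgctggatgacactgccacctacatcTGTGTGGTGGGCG
Trav11d: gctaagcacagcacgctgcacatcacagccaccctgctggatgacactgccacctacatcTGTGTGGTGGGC
Over the 342 bases compared they differed at 0 bases. The Trav14 family, the most read in the alpha chain, gives a contrast, with Trav14-1 (chr14:53554022-53554558) and Trav14n-3 (chr14:53370077-53370575).
Trav14-1: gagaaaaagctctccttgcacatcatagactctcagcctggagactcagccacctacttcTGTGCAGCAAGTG
Trav14n-3: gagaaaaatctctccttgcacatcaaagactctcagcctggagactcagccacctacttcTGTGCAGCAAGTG
They differed at 61 of 361 bases, although their capitals are the same. This count was made position by position without gaps, so a shift between the transcripts can raise it. A gamma and a delta segment, Trgv2 (ENSMUSG00000076754, chr13:19336573-19337167, minus strand) and Trdv4 (ENSMUSG00000076867, chr14:54074905-54075515, plus strand), are shown because they were the segments of these chains that passed the filter on low values.
Trgv2: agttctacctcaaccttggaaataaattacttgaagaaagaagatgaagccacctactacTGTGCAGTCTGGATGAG
Trdv4: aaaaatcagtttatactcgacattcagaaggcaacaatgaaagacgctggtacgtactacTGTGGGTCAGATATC

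V segments of all 4 chains were read in KLF10AKO iWAT, and few reads fell on them in WT iWAT. The reads recovered from the FPKM values came to 1157, 1155, 910 and 1313 on all V segments in KLF10AKO replicates 1 to 4, against 12, 18, 26 and 11 in WT replicates 1 to 4. The summed FPKM was 155.7, 155.0, 128.3 and 190.4 in KLF10AKO, against 2.19, 2.70, 4.05 and 1.77 in WT. The groups were far apart on both scales, and replicate 3 was the lowest of the KLF10AKO libraries. Each whole library held between 15537863 and 17499132 reads. In bulk tissue, fewer T cells and less receptor RNA per cell cannot be told apart.

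Each gene was tested with limma on log2(FPKM + 0.5), a scale that understates the change of low genes, with p-values adjusted by Benjamini-Hochberg over all 16012 genes whose mean was at least 0.5 FPKM and a threshold of 0.05. Of these 39.4% were higher and 34.9% lower in KLF10AKO. The shares depended on scaling, with 44.0% higher and 25.4% lower in TPM, 30.9% higher and 44.1% lower after quantile normalization, and 96.2% higher and 0.337% lower with each library scaled to 8 adipocyte markers, a choice made after the data were seen. These moved the median log2 change of all genes to 0.25, -0.16 and 1.87, against 0.05. Of the 144 members, 117 fell under the filter and 27 were tested (8 Trav, 17 Trbv, Trgv2 and Trdv4), of which 26 were higher, 0 were lower and Trdv4 did not pass. All 27 estimates were above 0 in limma and in voom on the recovered reads, so none was lower at an unadjusted p under 0.05 either. A segment with almost no WT reads could reach the filter only through KLF10AKO. This count and the p-values of such segments given below are therefore not support of their own. With no filter but a read in any library, 62 of 108 members were higher, against 23.5% of the 31609 genes kept. With a mean of at least 0.1 FPKM, 67 of 84 were, against 34.2%. Of the 108, 84 had reads in KLF10AKO alone and entered only through that group, so these counts are not support either. The directions of the 27 held under each scaling, with 26 or 27 higher and 0 lower.

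Other facts of the libraries stood beside this difference. Klf10 itself was 9.39, 9.68, 9.75 and 9.59 FPKM in KLF10AKO, against 16.7, 18.2, 16.7 and 21.1 in WT. Its log2 change was -0.88 (limma adjusted p = 8.96e-06), over the whole gene and not the deleted part alone, and 0.94 with scaling to adipocyte markers (adjusted p = 1.79e-05). The marker counts that follow stand beside 39.4% of all genes tested being higher and 34.9% lower in KLF10AKO. All 8 adipocyte markers fell, with summed FPKM of 1978 to 2682 in KLF10AKO and 8142 to 8273 in WT. All 6 B cell markers rose, at 925.8 to 1377 in KLF10AKO and 2.48 to 3.20 in WT. All 6 natural killer (NK) cell markers rose, at 18.7 to 28.1 in KLF10AKO and 3.27 to 4.67 in WT. All 5 markers of lymph node stroma and high endothelium that were tested rose, of 6, at 142.9 to 385.3 in KLF10AKO and 0.941 to 1.54 in WT, where Ccl21a, Ccl19 and Chst4 had 0 reads. With no filter, 8 genes carried these 6 names, and the values given here are of 1 gene per name. Of 6 skeletal muscle markers 5 rose, at 3318 to 7702 in KLF10AKO replicates 1 to 3, 33.6 in KLF10AKO replicate 4 and 162.0 to 214.7 in WT. With voom on the recovered reads 0 of the 6 passed, and in KLF10AKO replicate 4 taken alone against WT 3 were higher and 2 lower. The part of these cell types in the V segment values was not tested. KLF10AKO replicate 4, with the lowest muscle sum of its group, had the most V segment reads.

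**Figure D1:**
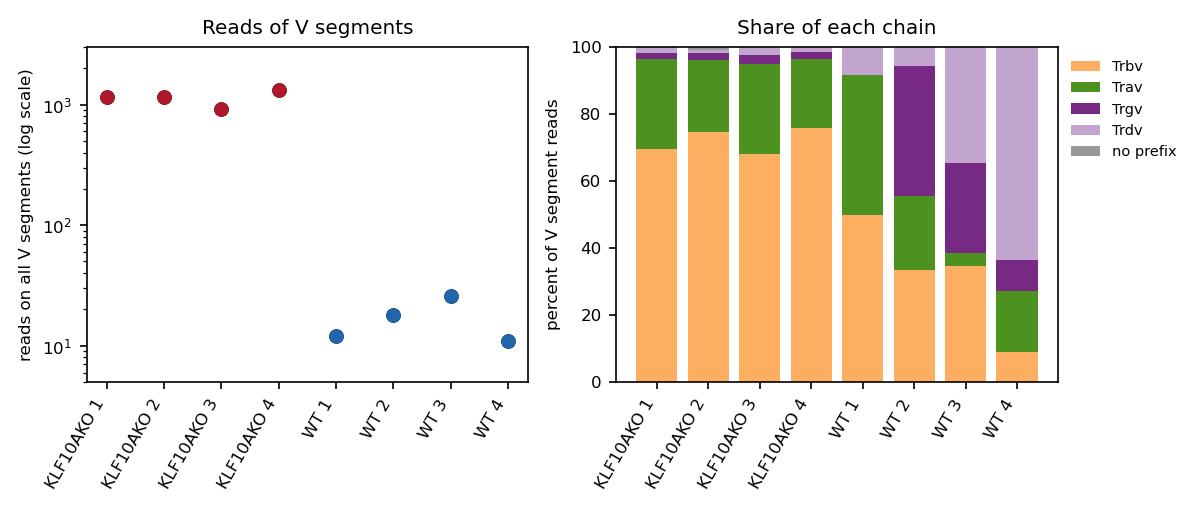
Left, reads on all V segments in each library, KLF10AKO replicates 1 to 4 and then WT replicates 1 to 4, on a log axis. Right, the percent of those reads on each chain, in the same order. KLF10AKO libraries hold 910 to 1313 reads, mostly Trbv, and WT libraries hold 11 to 26.

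A segment was counted as detected with at least 1 read. KLF10AKO libraries detected 83, 84, 86 and 90 of the 144 segments, and WT libraries detected 7, 12, 12 and 5. With at least 3 reads the counts were 66, 59, 58 and 69 in KLF10AKO, against 1, 2, 2 and 1 in WT. Detection follows the number of reads, so it was also computed as the number expected among 11 reads, the depth of the shallowest library. At 11 reads a KLF10AKO library was expected to show 9.35, 9.05, 9.39 and 9.09 segments, against 6.67, 8.53, 6.69 and 5 in WT. With all chains pooled, the WT values stayed below the KLF10AKO values, but by far less than the counts at full depth. At 910 reads, the depth of the shallowest KLF10AKO library, the 4 KLF10AKO libraries came to 80.9, 80.3, 86 and 84.8 segments.

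Over the 4 libraries of a group, 59 segments had a read in all 4 KLF10AKO libraries, 49 in 1 to 3 of them and 36 in none. In WT, 24 segments had a read in any library, and only Trdv4 had a read in all 4. No segment had reads in WT alone, 84 had reads in KLF10AKO alone, and 36 had none in any library. At these depths, 0 reads in a library allow up to 3 reads for a segment, so a segment without reads was not detectable and is not shown to be absent.

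**Figure D2:**
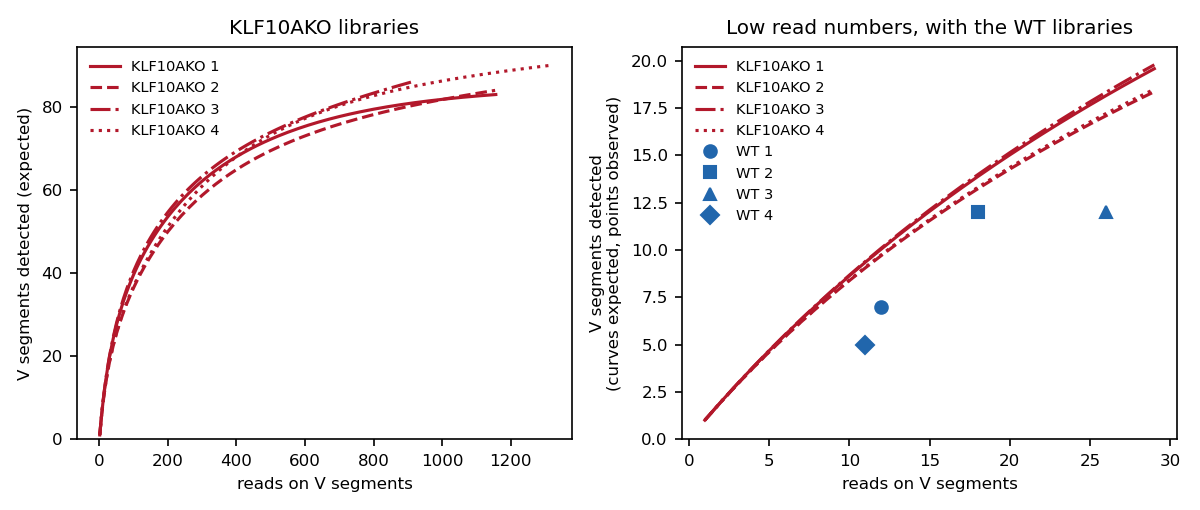
Expected number of V segments detected against the number of V segment reads. Curves are KLF10AKO libraries over their whole depth at left and at low depth at right, where points are the WT libraries as observed (12 of 144 segments at most). The KLF10AKO curves lie close together and end at 83 to 90 segments, and the WT points lie below them.

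Reads in KLF10AKO were spread over many segments with no dominant one. The 10 most read segments took 50.6, 58.1, 49.8 and 55.8% of V segment reads in KLF10AKO, and the most read took 9.77% ± 1.06 (SD, n = 4). Shannon evenness, which is 1 when all detected segments have equal reads, was 0.845, 0.809, 0.843 and 0.805 in KLF10AKO, against 0.921, 0.954, 0.838 and 0.804 in WT. The ranges overlap, and with 11 to 26 reads the WT evenness says little. The chance that a pair of reads comes from different segments, whose expectation does not depend on depth, was 96.5, 95.7, 96.6 and 95.8% in KLF10AKO, against 87.9, 94.8, 85.2 and 70.9% in WT. With all chains pooled, all 4 WT values were below all 4 KLF10AKO values, and WT replicate 4 was the lowest. Within Trbv the groups were not apart, at 93.2, 92.6, 93.2 and 93.0% in KLF10AKO, against 53.3, 93.3 and 94.4% in WT replicates 1 to 3. WT replicate 4 had 1 beta read and so no pair. Trdv4 took 9 of the 26 V segment reads in WT replicate 3 and 6 of the 11 in WT replicate 4.

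Beta chain segments were the most read. They had 806, 863, 620 and 996 reads in KLF10AKO, against 6, 6, 9 and 1 in WT. Summed FPKM was 108.6, 115.9, 87.8 and 144.7 for Trbv in KLF10AKO, and 42.2, 33.7, 34.6 and 39.6 for Trav in the same libraries. All 22 Trbv transcripts were distinct over every 100-base window compared with the other V segments, so none of them shared such a window. In KLF10AKO, 21, 20, 20 and 21 of the 22 were detected, and Trbv21 had 0 reads in all 8 libraries. Evenness within Trbv was 0.916, 0.914, 0.929 and 0.913 in KLF10AKO, and the 10 most read took 72.7 to 77.8% of beta reads.

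Trbv13-2, named Tcrb-V8.2 in older use and a beta segment that pairs with the invariant NKT alpha chain but also serves conventional T cells, had the highest level of the chain. It stood at 16.9, 19.5, 10.4 and 22.5 FPKM in KLF10AKO, against 0.394, 0.177, 0 and 0 FPKM in WT. The groups did not overlap, and KLF10AKO replicate 3 was the lowest of its group. On log2(FPKM + 0.5) the change was 4.78 (standard error 0.263, limma adjusted p = 5.21e-07). It took 13.5, 14.6, 10.3 and 13.6% of beta reads in KLF10AKO.

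Trbv16 followed with 9.14, 11.5, 10.7 and 16.1 FPKM in KLF10AKO, against 0, 0, 0 and 0.171 FPKM in WT, a log2 change of 4.49 (standard error 0.175, limma adjusted p = 6.69e-08). In KLF10AKO replicate 3 its 10.7 FPKM was above the 10.4 FPKM of Trbv13-2, so the order at the top was not the same in every library. Trbv3 was the steadiest of the high segments, at 9.04, 9.26, 7.88 and 9.34 FPKM in KLF10AKO, and had 0 reads in all 4 WT libraries. Its level was at least 82.3-fold higher in KLF10AKO, taking 3 reads over the 4 WT libraries as the floor.

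The middle of the chain was a run of segments at similar levels. Mean FPKM in KLF10AKO was 7.93 ± 2.84 for Trbv12-2, 7.20 ± 1.33 for Trbv1, 6.82 ± 2.60 for Trbv14, 6.71 ± 1.72 for Trbv13-1, 6.57 ± 1.07 for Trbv13-3, 6.08 ± 1.05 for Trbv29 and 5.17 ± 1.03 for Trbv20 (SD, n = 4 each). Neighbours in this order differ by less than their SD. Against the same floor, Trbv14 was at least 51.2-fold, Trbv29 at least 43.7-fold, Trbv12-1 at least 38.6-fold and Trbv17 at least 22.8-fold higher in KLF10AKO, each with 0 reads in WT. RefSeq lists Trbv29 as a V segment pseudogene, while the deposited table has it as a TR_V_gene. Trbv1 and Trbv29, which like Trbv13-2 pair with the invariant NKT alpha chain, changed by 3.84 and 3.70 on the log2 scale (limma adjusted p = 6.09e-08 and 2.40e-08). With 1 and 0 reads over the WT libraries, both passed the filter through KLF10AKO, so these p-values are not support of their own.

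The lowest beta segments with any read were Trbv30, Trbv23, Trbv5 and Trbv4, with means of 0.602, 0.550, 0.415 and 0.247 FPKM in KLF10AKO. Trbv4 and Trbv5 lie side by side between Trbv3 and Trbv12-1 on chromosome 6, and Trbv30 lies between Trbv29 and Trbv31, all at far higher levels. In GENCODE M21, Trbv4 and Trbv5 overlap exons of the lincRNA 5830405F06Rik on the same strand, so their reads cannot be told apart from its reads. The family Trbv13, with 3 segments, took 23.7% of beta reads in KLF10AKO, Trbv12 took 11.1%, Trbv16 took 10.5% and Trbv3 took 9.07%.

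**Figure D3:**
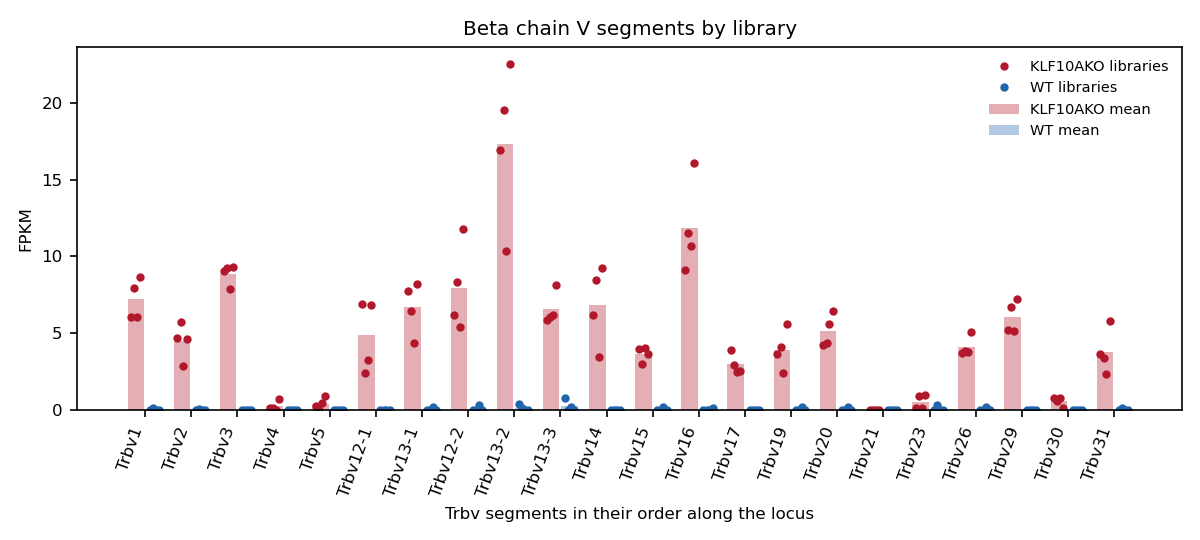
FPKM of the 22 Trbv segments in their order along the locus, KLF10AKO at left and WT at right of each pair. Points are libraries and bars are means of 4. Trbv13-2 reaches 22.5 FPKM in KLF10AKO, Trbv21 is at 0 in all libraries, and the WT points stay below 1 FPKM.

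Beta segment use was alike across the KLF10AKO libraries. Across the 22 segments, reads of a pair of KLF10AKO libraries correlated with Pearson's r of 0.886 to 0.957 and Spearman's rho of 0.791 to 0.923, as a description over segments of the same libraries. For the 17 Trbv segments with at least 20 reads in total, the variance of reads over the 4 libraries was a median 1.49 times that of counting alone. Trbv12-1 stood out at 6.24 times, with 51, 18, 23 and 47 reads in KLF10AKO replicates 1 to 4 and 0 in every WT library.

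Alpha chain reads were fewer and spread over more segments. The 108 Trav segments had 311, 248, 244 and 270 reads in KLF10AKO, against 5, 4, 1 and 2 in WT. In KLF10AKO, 53, 54, 57 and 61 segments were detected, evenness was 0.941, 0.923, 0.922 and 0.942, and the most read segment took 5.79, 10.1, 5.74 and 7.04% of alpha reads. Across the 108 segments the KLF10AKO libraries correlated with Pearson's r of 0.50 to 0.637 and Spearman's rho of 0.587 to 0.713, on far fewer reads per segment than in the beta chain.

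Trav13-1 had the highest mean level, with 2.87, 1.11, 1.17 and 3.25 FPKM in KLF10AKO and 0 in all 4 WT libraries, at least 14.2-fold higher in KLF10AKO. Trav14n-3 was read evenly, with 15, 12, 12 and 10 reads in KLF10AKO and 0 in WT, at least 13.5-fold higher. Trav14-1 was uneven, with 7, 25, 6 and 9 reads in KLF10AKO and 2, 3, 1 and 0 in WT. It took 10.1% of alpha reads in KLF10AKO replicate 2 and 2.25 to 3.33% in the other 3. Its log2 change was 1.40 (standard error 0.350, limma adjusted p = 0.00561), and 6 of the 12 alpha reads found in WT fell on it.

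Trav3-3, Trav9-4, Trav16, Trav8d-2 and Trav16n, with means of 1.29, 1.28, 1.18, 1.09 and 1.10 FPKM in KLF10AKO, had 0 reads in WT and log2 changes of 1.61 to 1.80. Trav15-1-dv6-1, which also serves delta chains, and Trav8-1 had means of 0.985 and 0.867 FPKM in KLF10AKO and fell under the filter. By family, Trav14 took 15.8% of alpha reads in KLF10AKO, Trav13 10.9%, and Trav7 and Trav9 10.3% each. Trav14-2, singled out after its values were seen, had 0, 3, 14 and 4 reads in KLF10AKO and was, with 8.31 times the counting variance, the most uneven of the 20 Trav segments with at least 20 reads.

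The fixed alpha chains of innate-like T cells were rarely read. Trav1, of MAIT cells, had 2, 5, 0 and 4 reads in KLF10AKO and 0 in WT. Trav11, of invariant NKT cells, had 0 reads in all 8 libraries, and its copy Trav11d had 1, in KLF10AKO replicate 2. Because these copies are identical over the compared bases, a low count for them can reflect how reads with several matches were counted, and this was not tested.

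Near-identical copies limit the alpha chain as a whole. The locus on chromosome 14 holds repeated blocks, and copies carry the letters d and n in their names. Of 100-base windows in each transcript, 36 segments (35 of them Trav) had 0 windows found in no other V segment. These 36 had 43 reads over the KLF10AKO libraries, on 12 segments. The 91 segments with at least 50% of windows of their own had 4426, on 86 segments. Trav segments with no copy letter took 68.8, 73.4, 63.9 and 68.1% of alpha reads in KLF10AKO, d copies 10.6, 10.1, 17.2 and 15.2%, and n copies 20.6, 16.5, 18.9 and 16.7%. In 3 parts of 36 segments along the locus, the part nearest the J segments took 62.4% of alpha reads in KLF10AKO, the middle 26.7% and the far part 10.9%. The far and middle parts each hold 17 of the segments with 0 windows of their own, and the near part holds 1, so position and copies cannot be told apart.

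**Figure D4:**
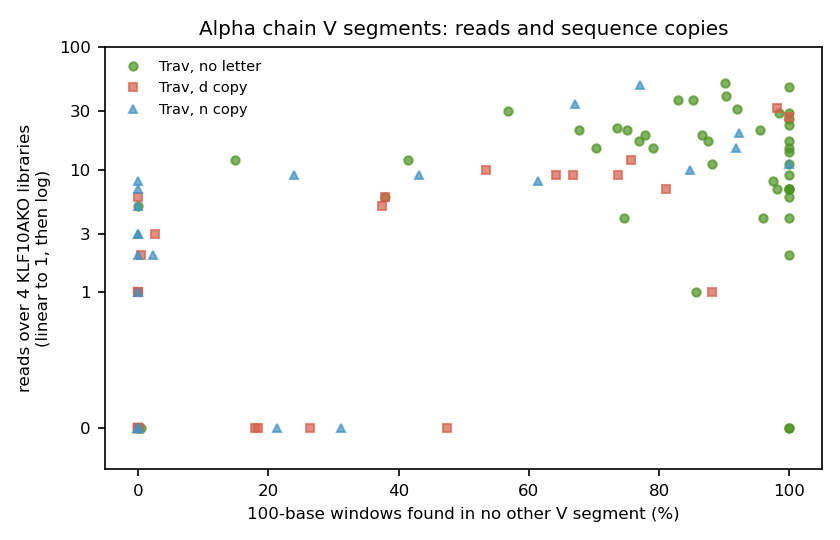
Reads over the 4 KLF10AKO libraries (linear to 1, then log) against the percent of 100-base windows found in no other V segment, for the 108 Trav segments. Circles have no copy letter, squares are d copies and triangles n copies. Segments with 0% unique windows lie at 8 reads or below, and the highest counts, up to 51 reads, belong to segments with over 50%.

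Gamma and delta segments were read in both groups. Gamma segments had 21, 22, 25 and 28 reads in KLF10AKO, against 0, 7, 7 and 1 in WT, and delta segments had 16, 13, 21 and 18 in KLF10AKO, against 1, 1, 9 and 7 in WT. Together they took 3.20, 3.03, 5.05 and 3.50% of V segment reads in KLF10AKO, against 8.33, 44.4, 61.5 and 72.7% in WT. Segments with dv in their names, which also serve delta chains, were counted as alpha. Among them Trav14d-3-dv8 had 32 reads over the KLF10AKO libraries and Trav15-1-dv6-1 had 29, with 0 in WT. The KLF10AKO shares can therefore be too low. The exact 95% binomial intervals of the WT shares were wide, 0.211 to 38.5% in replicate 1, 21.5 to 69.2% in replicate 2, 40.6 to 79.8% in replicate 3 and 39.0 to 94.0% in replicate 4. In WT replicates 2 to 4 they lay above all KLF10AKO shares, and in WT replicate 1, with 1 such read of 12, the interval covered them.

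Trdv4, the delta segment that pairs with Tcrg-V6 in tissue gamma-delta T cells of the mouse, was the segment with the closest levels in the groups among those that passed the filter. It had 12, 8, 10 and 6 reads in KLF10AKO, against 1, 1, 9 and 6 in WT, or 1.43, 0.949, 1.24 and 0.766 FPKM in KLF10AKO, against 0.151, 0.135, 1.35 and 0.920 FPKM in WT. WT replicates 3 and 4 lay within the KLF10AKO range, and WT replicates 1 and 2 lay below. The log2 change was 0.63 (95% interval -0.19 to 1.44, limma adjusted p = 0.143). Without WT replicate 3 it was 0.91 (adjusted p = 0.0295), and with scaling to adipocyte markers 2.45 (adjusted p = 4.77e-05). Tcrg-V6 itself had 2, 5, 1 and 2 reads in KLF10AKO, against 0, 1, 0 and 1 in WT.

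Trgv2 was the most read gamma segment, with 1.07, 0.966, 1.57 and 1.96 FPKM in KLF10AKO, against 0, 0.245, 0.679 and 0 FPKM in WT. The groups did not overlap, and the log2 change was 1.44 (standard error 0.303, limma adjusted p = 0.00215). Tcrg-V1 had 5, 6, 6 and 3 reads in KLF10AKO, against 0, 3, 1 and 0 in WT. Tcrg-V4 had 2, 2, 3 and 6 reads in KLF10AKO, against 0, 1, 1 and 0 in WT. The groups overlapped in Tcrg-V1 and not in Tcrg-V4. Tcrg-V5, the segment of epidermal gamma-delta T cells, had 2, 0, 1 and 0 reads in KLF10AKO and 0 in WT, and Tcrg-V3 and Tcrg-V7 had 0 in all libraries.

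Among the other delta segments, Trdv2-2 had 1, 1, 6 and 10 reads in KLF10AKO, against 0, 0, 0 and 1 in WT, and Trdv5 had 3, 2, 3 and 2 in KLF10AKO and 0 in WT. Trdv1 and Trdv2-1 had 3 and 1 reads in KLF10AKO and 0 in WT. Trdv2-1, Trdv2-2, Trdv5 and Tcrg-V4 overlap exons of another gene in GENCODE M21, and the strand setting is not given in the sources used here, so reads of the partner genes cannot be told apart from theirs. For Trdv5 the partner is Trdc, the constant region of the delta chain, on the opposite strand. The values of Trdc and the ratios with it below carry this limit.

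**Figure D5:**
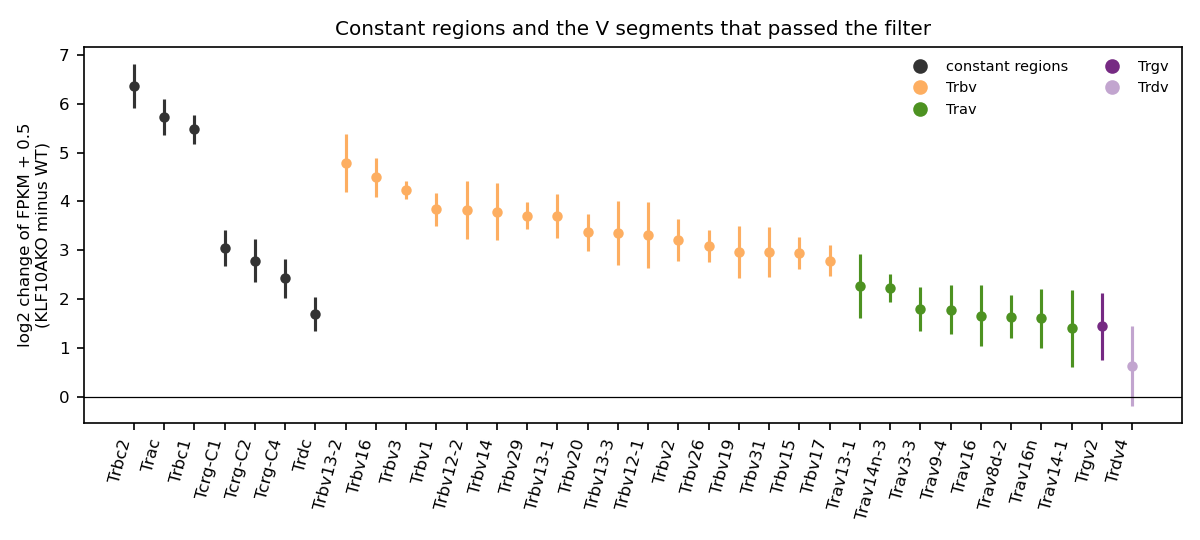
Log2 change of FPKM + 0.5, KLF10AKO minus WT, with 95% intervals from limma, for the T cell receptor constant regions and the 27 V segments that passed the filter. Trbc2 is highest at 6.36, Trbv segments lie from 2.79 to 4.78, Trav segments from 1.40 to 2.27, and the interval of Trdv4 reaches below 0.

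The constant regions, to which every V segment is spliced, were read more than the V segments of their chain in every library except for the delta chain of WT replicate 3, with 6 Trdc reads beside 9 Trdv reads. Trac, of the alpha chain, stood at 98.6 ± 14.4 FPKM in KLF10AKO and 1.38 ± 0.390 in WT (SD, n = 4 each), with a log2 change of 5.73 (limma adjusted p = 1.08e-08). Trbc1 and Trbc2, of the beta chain, changed by 5.48 and 6.36 on the log2 scale. The gamma regions Tcrg-C1, Tcrg-C2 and Tcrg-C4 changed by 3.05, 2.78 and 2.42, and Trdc, of the delta chain, by 1.69 (adjusted p = 1.20e-05). Trdc was 1.38, 2.02, 1.97 and 2.20 FPKM in KLF10AKO, against 0.243, 0.327, 0.103 and 0.282 FPKM in WT. The pseudocount of 0.5 draws the changes of low genes toward 0, so ratios without it were compared.

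The log2 ratio of Trdc to Trac was -5.71 ± 0.365 in KLF10AKO and -2.60 ± 1.04 in WT (SD, n = 4 each), a difference of -3.11. The log2 ratio of summed Tcrg-C to summed Trbc was -4.63 ± 0.0833 in KLF10AKO and -2.42 ± 0.478 in WT (SD, n = 4 each), a difference of -2.21. For each, the exact two-sided permutation p was 0.0286, the smallest that 4 libraries against 4 can give. These 2 comparisons were chosen after the values were seen. Summed Trav FPKM was 0.385 ± 0.0560 of Trac in KLF10AKO and 0.430 ± 0.353 in WT, and summed Trbv was 0.284 ± 0.0191 of Trbc1 plus Trbc2 in KLF10AKO and 0.162 ± 0.0885 in WT (SD, n = 4 each). Summed Trdv, which includes the Trdv5 that overlaps Trdc, was 1.39, 0.808, 1.41 and 1.11 times Trdc in KLF10AKO, against 0.622, 0.415, 13.1 and 3.87 times in WT. The alpha, beta and delta ratios varied more in WT, where they rest on 1 to 9 V segment reads per chain. In WT replicates 3 and 4, whose delta reads were mostly Trdv4, the Trdv level was above that of Trdc by more than in any KLF10AKO library.

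Genes that act with the receptor were higher too. All 4 CD3 chains, which signal for the receptor, and all 3 coreceptor genes Cd4, Cd8a and Cd8b1 rose, with median log2 changes of 4.68 and 6.15, against 0.05 over all genes. Cd8a was 49.6, 52.2, 39.7 and 61.5 FPKM in KLF10AKO, against 0.276, 0.0827, 0.0916 and 0.168 FPKM in WT. All 10 genes of receptor signalling rose, among them the kinase Lck by 5.62. Beside these counts, 39.4% of all genes tested were higher in KLF10AKO. Of genes that recombine segments or mark thymocytes, Rag2 had 0 reads in all libraries and Rag1 stood at 0.0167 FPKM or below. Ptcra, the partner of the beta chain in thymocytes, was at 0.0411 FPKM or below. Dntt, which adds bases at the joins, was 0.669, 0.867, 0.648 and 0.586 FPKM in KLF10AKO, against 0.0315, 0, 0 and 0 FPKM in WT, and was under the filter.

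Markers of gamma-delta and innate-like T cells were called in both directions, as were all genes, of which 39.4% were higher and 34.9% lower. Of 5 gamma-delta genes tested 2 were higher and 1 lower, and of 6 invariant NKT and MAIT genes 2 were higher and 3 lower. Lists this short say little about a difference from the shares over all genes. Of 8 gamma-delta genes 5 were tested, Blk and Cd163l1 rose by 6.04 and 2.59 on the log2 scale, Sox13 fell by 1.01, and Il17a had 0 reads in all libraries. Blk is also a kinase of B cells, whose markers rose in these libraries. Of 6 invariant NKT and MAIT genes, Slamf6 and Klrb1c rose, by 3.84 and 0.73. Klrb1c was also counted among the NK cell markers, all of which rose. Zbtb16, the transcription factor of innate-like T cells, Cd1d1, which presents lipids to NKT cells, and Mr1, which presents to MAIT cells, fell by 2.10, 1.37 and 0.61. Cells other than T cells also express Zbtb16, Cd1d1 and Mr1. With quantile normalization, 2 of the gamma-delta genes were higher and 2 lower, and 1 of the NKT and MAIT genes was higher and 4 lower. With scaling to adipocyte markers, 5 of the gamma-delta genes and 5 of the NKT and MAIT genes were higher, and 0 and 1 lower.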

How the data were processed

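Total RNA was poly(A)-selected and fragmented, per the labels' protocols. The submitters' processing notes name the build mm10 and the tools edgeR (3.22.5), featureCounts (1.5.0-p3) and HISAT2 (2.0.5). The sources used here do not give their roles, the read length, the annotation release, the strand setting or the treatment of reads with several matches. The authors deposited FPKM per gene with gene lengths. FPKM times length was a whole multiple of 1 step per library for 100% of values, within 0.01 of a read, so reads were recovered (15537863 to 17499132 per library). The recovered reads were 0.901 to 0.939 of the library size that this step implies in KLF10AKO, and 1.05 to 1.09 of it in WT. The authors' scaling thus differed between the groups. All 144 members had the same coordinates in GENCODE M21, whose transcripts gave the sequences.

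The comparison used limma (3.58.1, under R 4.3.3) with lmFit and eBayes with trend, two-sided, on log2(FPKM + 0.5), with no covariate. Constant region ratios had exact permutation tests. The procedure was tested on simulated data. Binomial intervals are exact (Clopper-Pearson), at 95%, and with the floor of 3 reads cover counting error only, since PCR reads carry no molecular identifiers. Uniqueness was checked over 100-base windows among V segment and V pseudogene transcripts alone. Named segments were the 10 Trav and 10 Trbv of highest mean FPKM, gamma and delta segments with a read, invariant chains with their partners, the 5 highest with 0 WT reads and those of the largest gap in share. The members and lists were chosen with earlier results of these data known. Libraries of the same replicate number shared little deviation from their group means, with correlations of 0.021, 0.003, 0.031 and 0.008. These values cannot show whether animals or preparations were paired. Alternatives covered pseudocounts, filters, scalings, voom, a replicate block and left-out libraries.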

Additional observations from a re-analysis of the deposited data

Results flagged for a closer look

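Some values lay far from the other libraries of their group, by a test on the gap to the nearest library. For normally distributed values, chance passes it in about 1 of 20 groups, a rate that does not hold for low read counts. A group whose other 3 libraries hold the same value always passes, as for Trav11d and Trdv2-1 below, so such flags carry no weight. In KLF10AKO, Trav14-1 had 25 reads and 10.1% of alpha reads in replicate 2, Trav3-3 had 5 reads in replicate 4, and Trbv13-3 had 49 reads in replicate 4. Replicate 4 had the most beta reads of its group, 996. The share of Trbv13-3 there, 4.92% of beta reads, lay within the 4.52 to 6.13% of the other KLF10AKO libraries. Trav14n-3 took 3.70% of alpha reads in KLF10AKO replicate 4, below the other 3. Trav11d had its 1 read (0.403% of alpha reads) and Trdv2-1 its 1 read in KLF10AKO replicate 2. The 10 most read Trbv took 77.8% of beta reads in KLF10AKO replicate 2, above the other 3, and Trbv evenness was highest, at 0.929, in KLF10AKO replicate 3.

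In WT the read and detection counts that met the same test pass it in every case, because the other 3 libraries were equal. Trbv16 and Trdv2-2 had 1 read each in replicate 4, Trbv13-1 and Trbv20 had 1 each and Trbv12-2 had 2 in replicate 3, and Trbv1 had 1 in replicate 2, with 0 in the other 3 libraries each time. Trdv segments detected came to 2 in WT replicate 4 and 1 in the others. Sums of markers, where the other libraries were not equal, also passed. Among WT libraries, skeletal muscle markers were highest in replicate 4, at 214.7 FPKM. Among KLF10AKO libraries, lymph node stroma markers were highest in replicate 4, at 385.3 FPKM.

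Receptor segments outside the members were also read. V pseudogenes had 35 reads over the 4 KLF10AKO libraries and 0 in WT, and J segments had 1219 over the KLF10AKO libraries and 46 in WT.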

How the results depend on the processing

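With no filter 62 members were higher in KLF10AKO, and with a mean of at least 0.1 FPKM 67, against 26 with the filter of 0.5, since more members were tested. Leaving out each library gave 26 to 27 higher and 0 lower, and KLF10AKO replicate 4 alone gave 26, its lone library assumed to vary like the others. The fit with the replicate block gave 26 higher and 0 lower, and every pair's correlation was below 0.1. Under the block, lower calls came to 2 among the gamma-delta genes and 4 among the NKT and MAIT genes, against 1 and 3. Receptor and T cell lists kept 24 higher and 0 lower without any library. Over all genes, with every library in, 39.4% were higher and 34.9% lower. The mean number detected in KLF10AKO, 85.75, became 63 with at least 3 reads, 42.75 for families, 89.5 with V pseudogenes and 9.22 at 11 reads, and 84.3 to 86.7 without a library. In WT the mean of 9 became 1.5 with at least 3 reads, and 8 to 10.3 without a library. The top 10 share in KLF10AKO, 53.6%, became 63.6% for families and 52.1 to 54.8% without a library, and in WT it was 93.7 to 97.4% without a library. Evenness in KLF10AKO, 0.826, became 0.860 with at least 3 reads and 0.819 to 0.832 without a library, and in WT it was 0.854 to 0.904. The ratio differences ran from -3.63 to -2.89 for Trdc to Trac and from -2.43 to -2.05 for Tcrg-C to Trbc without a library. Of the log2 changes of named genes under alternatives, 520 kept their direction and side of the threshold, 0 turned, and 2, both of Trdv4, newly passed. Top 10 share and evenness were not computed at 11 reads. With 11 to 26 reads, WT libraries limit every statement on repertoire shape in WT.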

Other observations

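J segments, which join V segments to the constant region and are 46 to 66 bases long, showed the same contrast. Of 70 J segments, 53 had a read in KLF10AKO and 15 in WT. Reads came to 313, 323, 249 and 334 in KLF10AKO, against 9, 21, 5 and 11 in WT. The 7 Trbj1 segments had 159, 180, 144 and 177 reads in KLF10AKO, against 2, 18, 1 and 10 in WT. The 6 Trbj2 segments had 71, 87, 66 and 91 reads in KLF10AKO, against 2, 3, 1 and 0 in WT. Of 51 Traj segments 35 were read in KLF10AKO, with 79, 46, 36 and 47 reads, against 5, 0, 3 and 1 in WT. WT replicates 2 and 4 thus had 18 and 10 Trbj1 reads beside 6 and 1 Trbv reads.

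Per length, Trbj2-7 averaged 39.7 ± 9.30 FPKM in KLF10AKO and 0.712 ± 1.42 in WT, and Trbj1-5 averaged 38.4 ± 6.93 FPKM in KLF10AKO and 1.66 ± 1.73 in WT (SD, n = 4 each). FPKM of genes this short rests on few reads and on the length used.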
